A study of Urosaurus graciosus
Urosaurus ornatus and Urosaurus graciosus and Urosaurus ornatus with 18 samples.

Results

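Transcripts of 6 skeletal muscle genes were followed across 18 lizard liver libraries, because muscle RNA in a liver sample can come from carried-over tissue. The 6 genes, ACTA1, MYLPF, CKM, ATP2A1, RYR1 and SCN4A, were taken by symbol from the 22773 rows of the count table, and all 6 were among the 15856 genes kept for testing. They were selected on measured values of these libraries: ATP2A1, ACTA1, CKM and MYLPF on the temperature comparison in hybrids, and RYR1 and SCN4A on that in Urosaurus ornatus. Values of those 2 comparisons, and of the mean over lineages that contains them, are therefore given as a description with no test.

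All lizards were male per the labels and were held for 48 h at 40 °C or at 36 °C before total RNA was extracted from the liver. There were 3 hybrids at 40 °C (animals I, K and X) and 3 at 36 °C (A, B and D), 3 Urosaurus graciosus at 40 °C (P, Q and T) and 3 at 36 °C (J, R and S), and 3 U. ornatus at 40 °C (L, N and O) and 3 at 36 °C (E, F and H). The labels do not state the hybrid generation. The series was designed to compare antioxidant gene expression in hybrids and their parent species, and no group was chosen for its muscle transcripts.

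In vertebrate skeletal muscle a nerve impulse is carried along the fibre by the voltage-gated sodium channel SCN4A and releases calcium through the ryanodine receptor RYR1. Calcium lets actin (ACTA1) and myosin, with its regulatory light chain MYLPF, pull the filaments past each other. The calcium pump ATP2A1 then returns calcium to its store and the creatine kinase CKM replenishes ATP, and ATP2A1, MYLPF and ACTN3 belong mainly to fast fibres. Hepatocytes are not known for a contractile apparatus of this kind.

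Libraries held 15780346 to 35002548 counts, and values are CPM, counts per 1e6 counts of the TMM-scaled library total. Hybrid X at 40 °C and U. ornatus O at 40 °C stood apart in their scaling factors, 1.43 and 1.35. The 11 hepatocyte markers found in the table summed to between 25790 CPM in X and 139400 CPM in U. graciosus T, with 89230 CPM in hybrid D. In U. ornatus the sums ran from 36470 to 61100 CPM at 40 °C and from 74660 to 107300 CPM at 36 °C, with no overlap. Whether this bears on the RYR1 and SCN4A values was not tested. A value of 3 counts, taken as the detection floor, corresponded to 0.0929 to 0.200 CPM. In bulk tissue fewer muscle cells and less RNA per cell cannot be told apart, and levels are compared between animals only, since gene lengths were not used here.

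The contractile genes and ATP2A1 had their highest value in hybrid D at 36 °C, and hybrid B, also at 36 °C, was next for ACTA1 and CKM. ACTA1, the skeletal alpha-actin, had 1.84, 2.30 and 3.11 CPM in the hybrids I, K and X at 40 °C, against 0.774, 7.70 and 22.5 CPM in the hybrids A, B and D at 36 °C. D and B lay above all other animals, while A lay below each hybrid at 40 °C, so the groups overlapped. In U. graciosus ACTA1 had 1.29, 2.29 and 4.27 CPM in P, Q and T at 40 °C and 1.69, 1.39 and 2.91 CPM in J, R and S at 36 °C. In U. ornatus it had 2.16, 2.04 and 2.76 CPM in L, N and O at 40 °C and 0.947, 0.829 and 0.543 CPM in E, F and H at 36 °C, with no overlap between the temperatures. D held 36.7% of the ACTA1 CPM summed over 18 libraries and B held 12.6%. Reads of ACTA1 can be shared with other actins, and how the authors' counting treated reads with several matches is not stated in the labels, so its level is uncertain.

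MYLPF, the regulatory light chain of fast myosin, had 2 counts in each hybrid at 40 °C (0.0836, 0.0792 and 0.0699 CPM in I, K and X), under the floor of 3 counts. In hybrids at 36 °C it had 0.464, 1.22 and 9.52 CPM in A, B and D. All 3 animals at 36 °C lay above all 3 at 40 °C, and D held 33.4% of the summed CPM. In U. graciosus MYLPF had 1.41, 4.24 and 0.467 CPM in P, Q and T at 40 °C, against 1.40, 0.397 and 0.929 CPM in J, R and S at 36 °C. In U. ornatus it had 0.879, 0.681 and 4.45 CPM in L, N and O at 40 °C, against 0.852, 0.184 and 1.16 CPM in E, F and H at 36 °C. Q and O stood above the other parent animals, and both parent species overlapped between temperatures.

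CKM, the muscle creatine kinase, was found mainly in D and B. Hybrids at 40 °C had 4, 0 and 0 counts in I, K and X, against 0, 117 and 625 counts in A, B and D at 36 °C. These counts correspond to 0.167, 0 and 0 CPM in hybrids at 40 °C and to 0, 4.19 and 31.7 CPM in hybrids at 36 °C. D held 80.9% of the CKM CPM summed over all animals and B held 10.7%. U. graciosus had 0.492, 0 and 0.133 CPM in P, Q and T at 40 °C, against 0.247, 0 and 1.69 CPM in J, R and S at 36 °C. U. ornatus had 0.293, 0 and 0.0936 CPM in L, N and O at 40 °C, against 0.189, 0 and 0 CPM in E, F and H at 36 °C. Outside D and B, S was the only animal above 1 CPM, with 40 counts.

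ATP2A1, the fast-fibre calcium pump, was highest in D and next in the U. ornatus animal L. Hybrids I, K and X at 40 °C had 0.0836, 0 and 0.0699 CPM, or 4 counts in all, against 0.310, 2.79 and 40.3 CPM in A, B and D at 36 °C. No hybrid at 40 °C reached the level of A. U. graciosus had 1.23, 0.956 and 0.400 CPM in P, Q and T at 40 °C, against 1.07, 0.278 and 1.31 CPM in J, R and S at 36 °C. U. ornatus had 15.8, 3.71 and 2.76 CPM in L, N and O at 40 °C, against 1.14, 4.84 and 0.853 CPM in E, F and H at 36 °C. D held 51.7% of the summed CPM and L held 20.2%, and F at 36 °C lay between L and N, so the U. ornatus groups overlapped.

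The excitation genes had another distribution, with their highest values in U. ornatus at 40 °C. RYR1, the calcium release channel, had 2.01, 2.30 and 1.71 CPM in the hybrids I, K and X at 40 °C, against 3.19, 2.29 and 6.99 CPM in A, B and D at 36 °C. In U. graciosus it had 3.20, 3.59 and 2.27 CPM in P, Q and T at 40 °C, against 2.47, 4.56 and 1.90 CPM in J, R and S at 36 °C. In U. ornatus it had 17.0, 13.3 and 40.6 CPM in L, N and O at 40 °C, against 7.10, 3.50 and 4.81 CPM in E, F and H at 36 °C. Each U. ornatus at 40 °C lay above all 15 other animals, and O alone held 33.1% of the summed CPM.

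SCN4A, the muscle sodium channel, had 5.56, 6.93 and 2.24 CPM in the hybrids I, K and X at 40 °C, against 5.97, 4.37 and 12.7 CPM in A, B and D at 36 °C. In U. graciosus it had 7.13, 5.47 and 4.47 CPM in P, Q and T at 40 °C, against 16.6, 14.2 and 11.2 CPM in J, R and S at 36 °C, with no overlap. In U. ornatus it had 20.04, 160 and 99.1 CPM in L, N and O at 40 °C, against 11.1, 12.2 and 11.6 CPM in E, F and H at 36 °C, again with no overlap. N held 38.9% and O 24.1% of the summed CPM, whereas D, the animal that led the contractile genes, held 3.10%. Among the hybrids alone, D had the highest value of SCN4A, at 12.7 CPM, and also of RYR1, at 6.99 CPM. Over all genes tested, the animal with the highest value held a median of 10.7% of a gene's summed CPM, and the 95th percentile was 33.1%.

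**Figure D1:**
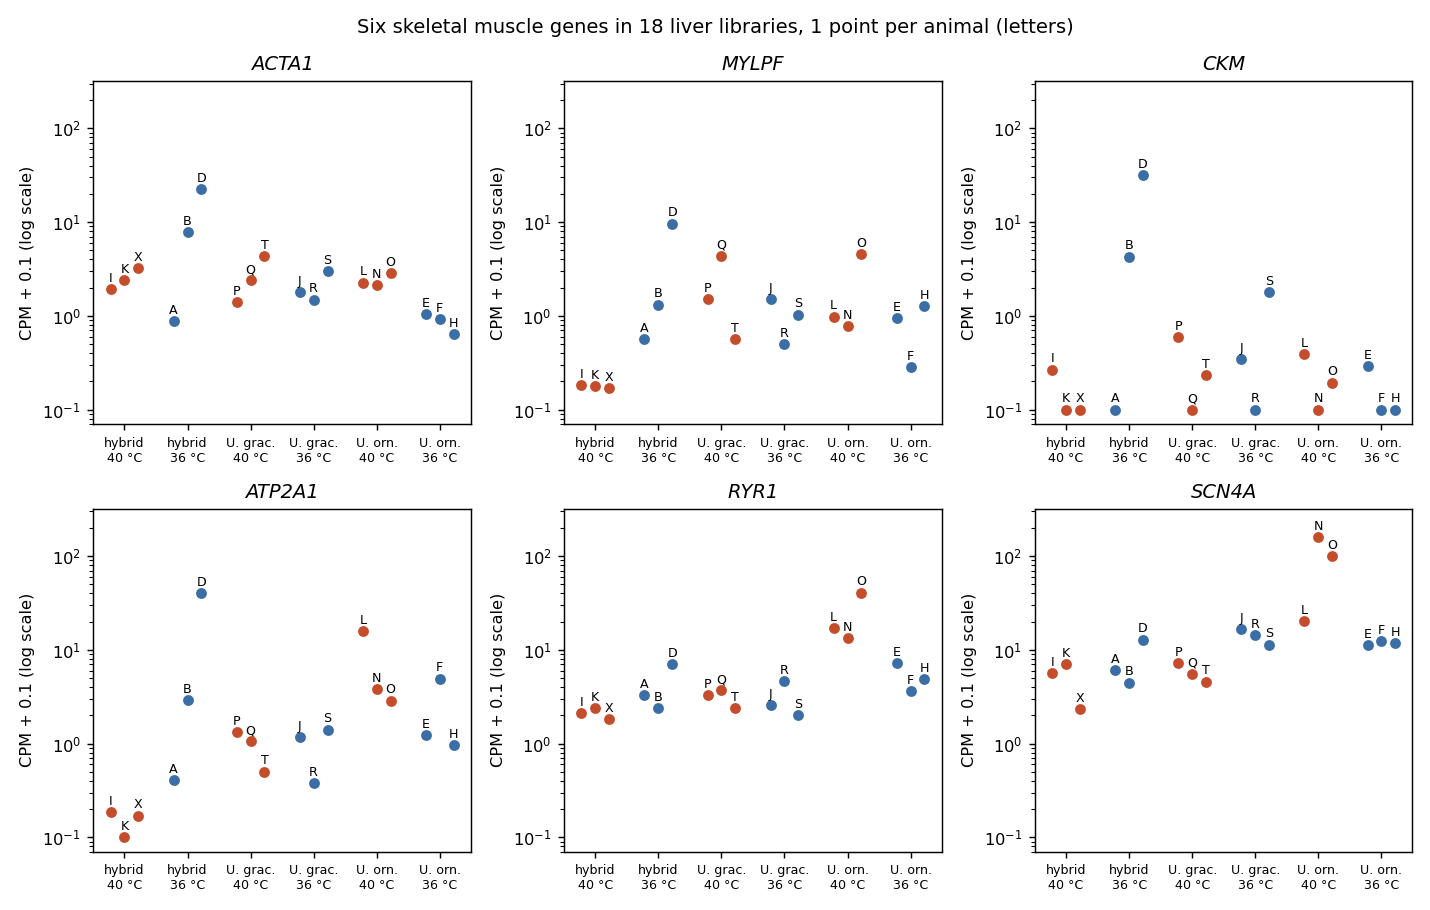
CPM plus 0.1 on a log axis for the 6 genes, with 1 point per animal (letters) in the 6 groups of lineage and temperature, red for 40 °C and blue for 36 °C. Hybrid D is the highest animal for ACTA1, MYLPF, CKM and ATP2A1, while O is highest for RYR1 and N for SCN4A.

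Hybrids at 40 °C and 36 °C were the comparison that chose the first 4 genes. Group means were 2.42 ± 0.645 CPM at 40 °C and 10.3 ± 11.1 CPM at 36 °C for ACTA1, and 0.0776 ± 0.00696 CPM at 40 °C and 3.74 ± 5.03 CPM at 36 °C for MYLPF (SD, n = 3 each). For CKM they were 0.0557 ± 0.0965 CPM at 40 °C and 11.95 ± 17.2 CPM at 36 °C, and for ATP2A1 0.0512 ± 0.0448 CPM at 40 °C and 14.5 ± 22.4 CPM at 36 °C. The SD at 36 °C exceeded the mean in each of these 4 genes. The fitted log2 differences (40 °C minus 36 °C, ± SE) were −2.09 ± 0.76 for ACTA1, −5.49 ± 1.32 for MYLPF, −7.69 ± 2.25 for CKM and −8.00 ± 1.70 for ATP2A1, with −1.04 ± 0.49 for RYR1 and −0.64 ± 0.56 for SCN4A. Of all genes tested, 0% passed an edgeR adjusted p under 0.05 in this comparison.

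The size of the hybrid differences depended on D and B, and for CKM also on the 4 counts of I, the only ones at 40 °C, without which the difference was −11.2. Without D the log2 differences were −0.81 for ACTA1, −3.36 for MYLPF, −5.17 for CKM and −4.78 for ATP2A1. Without both, which leaves only A at 36 °C, they were 1.63 for ACTA1, −2.52 for MYLPF, 3.52 for CKM and −2.49 for ATP2A1, so that ACTA1 and CKM turned direction. RYR1 gave −0.45 without D and −0.67 without both, and SCN4A −0.08 without D and −0.29 without both. By limma voom with quality weights, which gives outlying libraries less weight, the differences were −0.23 for ACTA1, −3.45 for MYLPF, −2.13 for CKM and −4.90 for ATP2A1.

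In U. ornatus, whose comparison chose RYR1 and SCN4A, the means were 23.6 ± 14.8 CPM at 40 °C and 5.14 ± 1.82 CPM at 36 °C for RYR1, and 93.0 ± 70.1 CPM at 40 °C and 11.65 ± 0.542 CPM at 36 °C for SCN4A (SD, n = 3 each). The fitted log2 differences were 2.20 ± 0.49 for RYR1 and 3.00 ± 0.59 for SCN4A. They were 1.71 ± 1.18 for ATP2A1, 1.58 ± 0.78 for ACTA1, 1.43 ± 1.06 for MYLPF and 1.04 ± 2.35 for CKM, in which 10 counts at 40 °C stood against 4 at 36 °C. Of all genes 0.782% passed the threshold here. Without O the difference was 1.54 for RYR1 and 0.07 for MYLPF, without N it was 2.35 for SCN4A, and without L it was 0.51 for ATP2A1 and −0.49 for CKM, which turned direction. Without F it was 2.90 for ATP2A1, and without E it was 4.72 for CKM. With L as the lone animal at 40 °C, SCN4A gave 0.79 and RYR1 1.72. Averaged over the 3 lineages, in a comparison where 0.996% of genes passed, the 6 differences lay between −2.79 for CKM and 0.39 for RYR1. Without D and B, ACTA1 and CKM turned direction in this average: ACTA1 was −0.04 with all libraries and 1.197 without them, and CKM was 0.96 without them.

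U. graciosus was the lineage in which temperature did not choose the genes. None of ACTA1, MYLPF, ATP2A1, RYR1 and SCN4A passed in edgeR, as for 0% of all genes, and DESeq2 and voom also called 0 of them. Of these SCN4A alone had an unadjusted edgeR p under 0.05, beside 968 of all 15856 genes. SCN4A averaged 5.69 ± 1.35 CPM at 40 °C and 14.0 ± 2.66 CPM at 36 °C (SD, n = 3 each), a log2 difference of −1.30 ± 0.57 with an edgeR adjusted p of 0.788. The other differences were 0.38 ± 0.75 for ACTA1, 1.18 ± 1.04 for MYLPF, −0.02 ± 1.25 for ATP2A1 and 0.02 ± 0.48 for RYR1, each with an edgeR adjusted p of 0.931 or above. CKM, at −1.73 ± 1.90, is given as a description, since it did not pass the low-count filter in the U. graciosus libraries alone. CKM had 10 counts in all at 40 °C and 46 at 36 °C, 40 of them in S, and its difference ran between −3.54 and 0.62 as 1 library was left out.

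**Figure D2:**
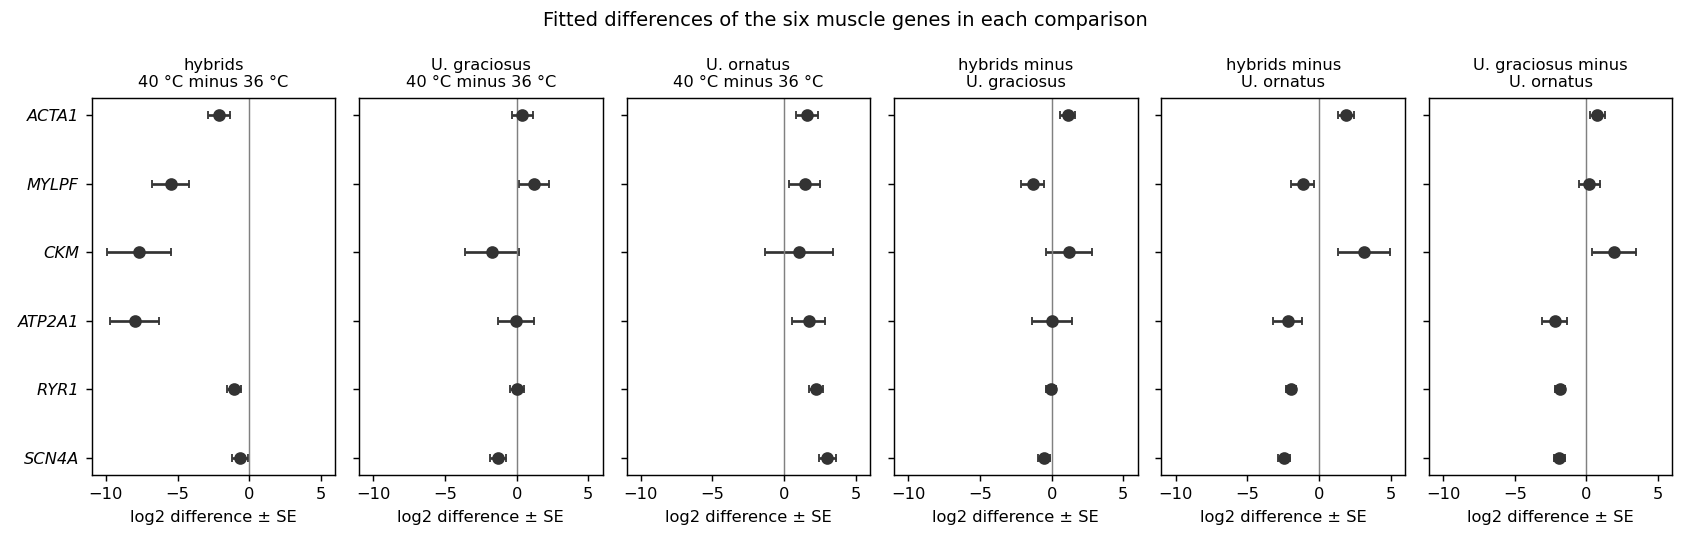
Fitted log2 difference (points) ± SE (bars) of the 6 genes in 6 comparisons, each titled with the group on top first. ATP2A1 is at −8.00 in hybrids and at −0.02 in U. graciosus, and SCN4A is at 3.00 in U. ornatus and −1.30 in U. graciosus.

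Lineages were then compared over both temperatures, 6 animals each. ACTA1, MYLPF, CKM and ATP2A1 had been chosen on hybrid libraries and RYR1 and SCN4A on U. ornatus libraries, at both temperatures in each case. A comparison is therefore given as a description, with no test, wherever it contains the lineage that chose the gene, and values at 1 temperature alone are no freer of that choice. This left no test of the 6 genes between hybrids and U. ornatus. It left tests of RYR1 and SCN4A between hybrids and U. graciosus, and of ACTA1, MYLPF and ATP2A1 between the parents. CKM did not pass the low-count filter in the parent libraries alone, so its parent values are a description too.

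RYR1 and SCN4A had their higher values in U. ornatus when set beside hybrids. RYR1 ran from 1.71 to 6.99 CPM in hybrids and from 3.50 to 40.6 CPM in U. ornatus, a log2 difference (hybrids minus U. ornatus) of −1.93 ± 0.35. SCN4A ran from 2.24 to 12.7 CPM in hybrids and from 11.1 to 160 CPM in U. ornatus, a log2 difference of −2.43 ± 0.41. The differences were larger at 40 °C, at −3.55 for RYR1 and −4.25 for SCN4A, than at 36 °C, at −0.31 ± 0.48 and −0.61 ± 0.56. The other ryanodine receptors of the table were lower in hybrids over both temperatures, by log2 differences of −3.34 for RYR2 and −0.73 for RYR3 (edgeR adjusted p = 0.00231 and 0.0276), and read sharing with RYR1 was not tested.

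For ACTA1 the log2 difference between hybrids and U. ornatus was 1.90 ± 0.54, and it depended on D and B. It was 1.26 without D and 0.03 without D and B, and it was 3.73 ± 0.82 at 36 °C and 0.06 at 40 °C. The smooth muscle actins ACTA2 and ACTG2 were higher in hybrids over both temperatures, by 1.43 and 1.66 (edgeR adjusted p = 0.00879 and 0.00216). Both were highest in X, at 78.9 and 61.3 CPM. Their medians were 23.6 and 12.7 CPM in hybrids, against 13 and 5.77 CPM in U. ornatus. How far these 2 differences depend on X was not examined. For CKM the difference was 3.16 ± 1.80 over both temperatures, 7.52 ± 2.24 at 36 °C and −2.44 without D and B. MYLPF gave −1.14 ± 0.80 and ATP2A1 −2.19 ± 0.998, and without D they gave −2.20 and −3.80. Of all genes 35.2% passed between these lineages, 18.2% higher and 16.9% lower in hybrids, and 18.4% passed at 36 °C alone.

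Between U. graciosus and U. ornatus none of ACTA1, MYLPF and ATP2A1 passed in edgeR, where 32.2% of all genes passed, 16% higher and 16.1% lower in U. graciosus. ATP2A1 ran from 0.278 to 1.31 CPM in U. graciosus and from 0.853 to 15.8 CPM in U. ornatus, a log2 difference of −2.22 ± 0.88 (edgeR adjusted p = 0.0632). ATP2A1 passed with DESeq2 (adjusted p = 0.0174) and in an edgeR fit of only these lineages (adjusted p = 0.0163). With 1 library left out at a time it passed in 2 of 18 edgeR fits, those without hybrid A or hybrid D (adjusted p = 0.0270 and 0.0225). The adjusted p-values of these edgeR fits ran up to 0.187, and the smallest difference, −1.62, was without L, the animal at 15.8 CPM. ACTA1 and MYLPF gave 0.77 ± 0.54 and 0.18 ± 0.73, with edgeR adjusted p-values of 0.290 and 0.874. Of ACTA1, MYLPF and ATP2A1, the last alone had an unadjusted edgeR p under 0.05, beside 6809 of all 15856 genes, and voom called 0 of them. CKM, as a description, gave 1.93 ± 1.52. RYR1 and SCN4A, as a description, gave −1.87 ± 0.35 and −1.88 ± 0.41 over both temperatures. At 36 °C alone, where 14.8% of all genes passed, RYR1 gave −0.78 ± 0.48 and SCN4A 0.26 ± 0.55, and without N and O SCN4A gave −0.77 over both temperatures. At 36 °C SCN4A overlapped between the parents, at 11.2 to 16.6 CPM in U. graciosus and 11.1 to 12.2 CPM in U. ornatus.

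Between hybrids and U. graciosus neither RYR1 nor SCN4A passed in edgeR, where 1.82% of all genes passed. RYR1 was at −0.06 ± 0.34 and SCN4A at −0.54 ± 0.40, with edgeR adjusted p-values of 0.962 and 0.547; both had an unadjusted p above 0.05, and DESeq2 and voom called 0. At 36 °C alone, where 0.082% of all genes passed, they were at 0.47 ± 0.48 and −0.87 ± 0.56 (edgeR adjusted p = 0.918 and 0.805). The genes chosen on hybrids, as a description, were at 1.13 ± 0.53 for ACTA1, −1.31 ± 0.80 for MYLPF, 1.22 ± 1.62 for CKM and 0.03 ± 1.42 for ATP2A1. Without D and B ACTA1 was at −0.73, CKM at −4.39 and ATP2A1 at −2.72.

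The 49 other skeletal muscle genes listed and found in the table showed how far the pattern of D extended. Of the 33 tested, 11 had their highest CPM in D, whereas D was highest in 3.28% of all genes tested. With the untested genes, some of which had under 10 counts in D, it was 20 of the 46 with any count. Among these 20 were 4 of 6 genes of the thin filament, 4 of 5 of the thick filament and titin, 4 of 8 of the Z disc, 4 of 10 of excitation-contraction coupling and 4 of 8 of muscle energy supply. Of 7 genes of the neuromuscular junction and membrane excitation, 0 were highest in D. The list was drawn up with the values of D known, so these counts describe the libraries and are not independent support.

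Titin, enolase and several fast-fibre genes were among those highest in D. The fast myosin light chain MYL1 had 10.5 CPM in D, 2.39 CPM in O and 1.97 CPM in B. It had 0 in the hybrids I, K, X and A, and also in the parent animals Q, R, F and H. The fast troponins followed, with TNNT3 at 11.95 CPM in D against 5.30 CPM in the next animal, E, and TNNI2 at 8.97 CPM in D against 1.504 CPM in X. TNNC2, the fast calcium-binding troponin, had 4.31 CPM in D and 0.358 CPM in B. The muscle enolase ENO3 had 14.9 CPM in D and 2.22 CPM in B, and ACTN3, the fast alpha-actinin of the Z disc, 4.36 CPM in D and 0.466 CPM in B. The giant filament proteins TTN and NEB had 19.3 and 8.21 CPM in D, against 5.02 and 5.87 CPM in E. MYBPC2, the fast myosin-binding protein, was less apart, at 12.1 CPM in D and 10.4 CPM in H. CASQ1, the calcium buffer of the store, had 3.34 CPM in D and 0.588 CPM in A, and CACNA1S, the voltage sensor coupled to RYR1, 1.32 CPM in D and 0.143 CPM in B. TNNC2, ACTN3, CASQ1 and CACNA1S were chosen after their values were seen. For ENO3, TNNC2, ACTN3 and CACNA1S the next animal was B, the second-highest animal for CKM and ACTA1 too. These were the only 4 of the 20 other muscle genes highest in D for which B came next. Of the 46 muscle list genes with counts, 26 were highest in another animal. TPM1 and DES were highest in X, at 157 and 85.6 CPM against 81.8 and 18.2 CPM in D. PGAM2 was highest in J and AMPD1 in Q, at 78.0 and 14.1 CPM against 51.8 and 5.775 CPM in D.

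**Figure D3:**
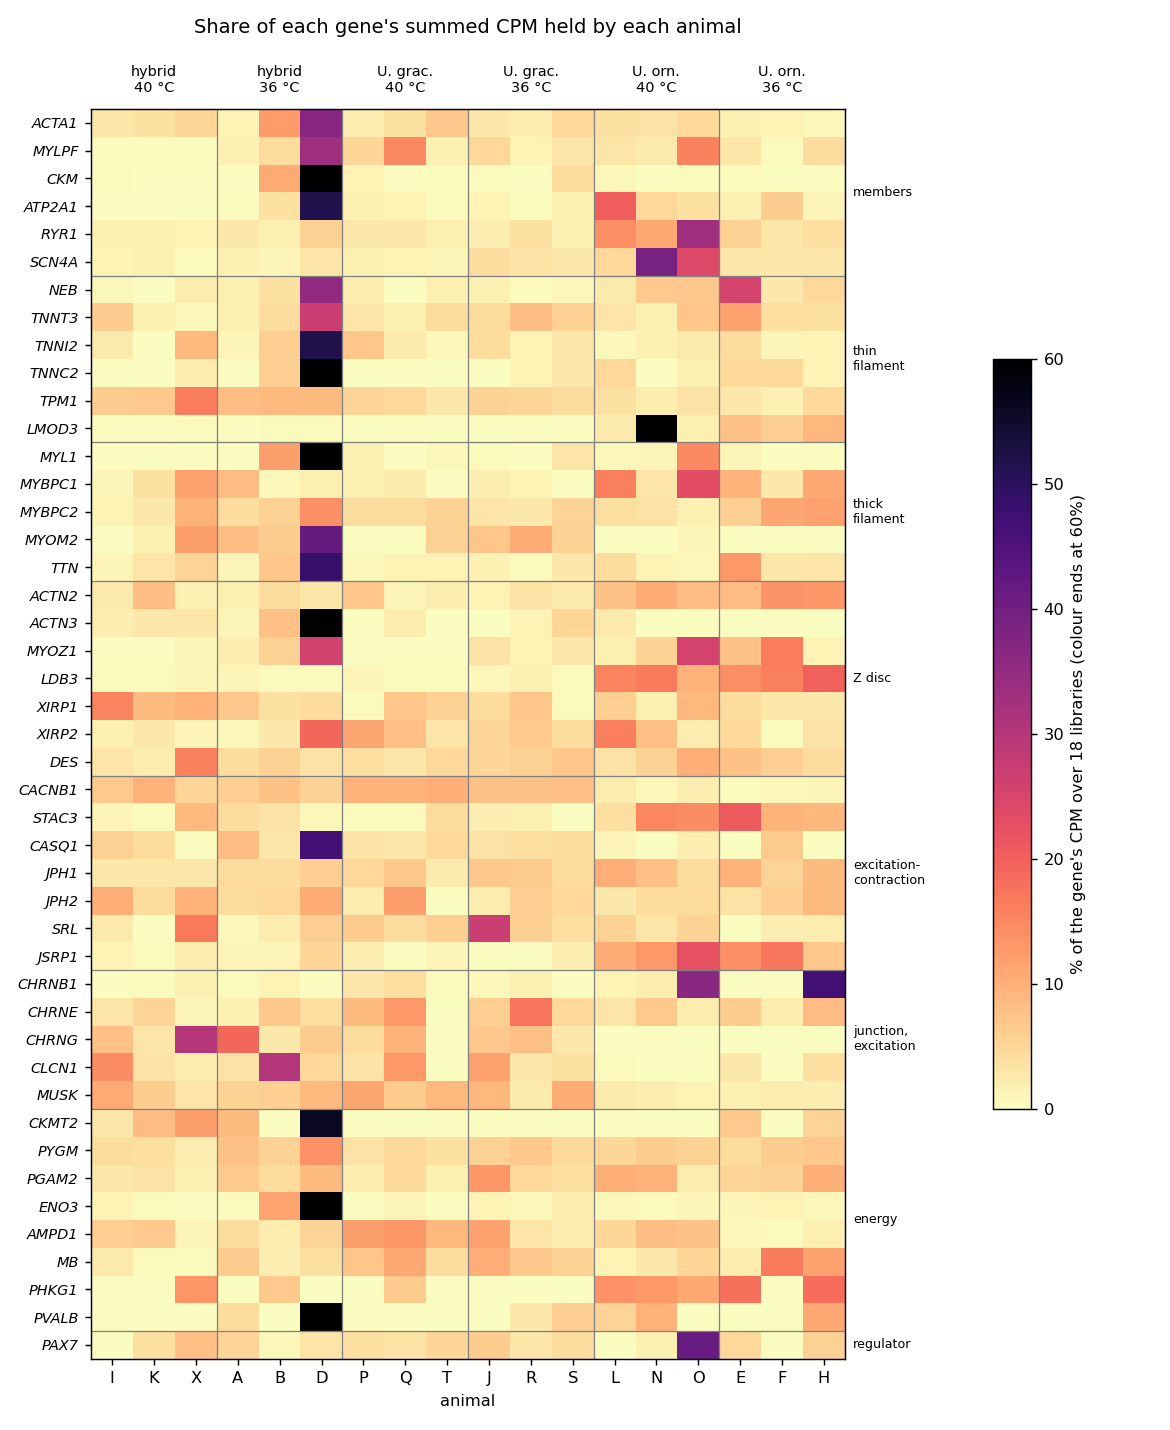
Share (%) of each gene's CPM summed over 18 libraries that each animal holds, for the 6 genes (top rows) and the other skeletal muscle genes with at least 50 counts, grouped by role; the colour scale ends at 60%. The column of hybrid D is dark for CKM, ATP2A1, MYL1, TNNC2, ACTN3 and ENO3 and pale for RYR1 and SCN4A, while LDB3 is spread over the 6 U. ornatus.

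Lists of slow muscle, heart and smooth muscle genes were summed beside these. The slow muscle list (7 of 8 genes in the table) was also highest in D, at 2.63 CPM against a median of 0.582 CPM, through the slow troponin TNNT1 at 2.13 CPM, the only 1 of the 7 that was highest in D. The slow troponin I gene TNNI1 and the light chain MYL2 had 0 counts in D, but only 24 and 8 counts over all 18 libraries. In D the slow muscle genes MYH7B, TNNC1 and MYL3 had 6, 2 and 2 counts. The heart list ran from 1.33 to 20.4 CPM with 9.73 CPM in D, which was highest in 0 of the 7 genes with counts. The cardiac actin ACTC1 had 0 counts in D and only 4 over all 18 libraries. The smooth muscle list ran from 112 to 395 CPM, with 183 CPM in D, and X was highest in 5 of its 8 genes. The myogenic regulators MYOD1, MYF5 and MYF6 were at 0 in all 18 libraries. The regulators PAX7 and MYOG had 187 and 9 counts over all libraries, and PAX7 was highest in O, at 3.32 CPM, with 0.253 CPM in D. Widely expressed relatives had other orders. ATP2A2, the pump of heart and most other tissues, had its lowest value in D, 67.5 CPM of a range up to 292 CPM. The brain-type creatine kinase CKB had 14.2 CPM in D, within 6.64 to 47.9 CPM.

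Within a library, the counts of CKM and ATP2A1 were set against each other, as a description of genes and libraries picked for high values. CKM made up 44.0% of the CKM and ATP2A1 counts of D (exact Clopper-Pearson 95% interval 41.4% to 46.6%, 1420 counts), 60% of those of B (52.8% to 66.9%, 195 counts) and 56.3% of those of S (44.1% to 68.1%, 71 counts). It made up 1.83% of those of L (0.792% to 3.57%, 438 counts), 0 of 109 counts in N (upper bound 3.33%), 3.28% of those of O (0.400% to 11.4%, 61 counts) and 0 of 105 in F (upper bound 3.45%). MYL1 against ATP2A1 gave 20.7% in D, 41.4% in B and 27.9% in S, against 0.922% in L, 4.39% in N, 46.4% in O and 0 of 105 in F. In O the share of MYL1 was high and that of CKM low. ACTA1 against ATP2A1 gave 35.8% in D, 73.4% in B and 69% in S. It gave 12.1% in L, 35.5% in N, 50% in O and 14.6% in F, so D lay between L and O for this pair. L, N, O and F are all U. ornatus, while D, B and S are hybrids or U. graciosus. All reads were aligned to the genome of another species, so a lineage difference in these shares and one in alignment cannot be told apart. These intervals cover counting error only and take each count as independent. The labels name no molecular identifiers, so reads are not independent molecules. Most low counts were even, so a count may not equal 1 fragment, and the intervals may be too narrow.

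**Figure D4:**
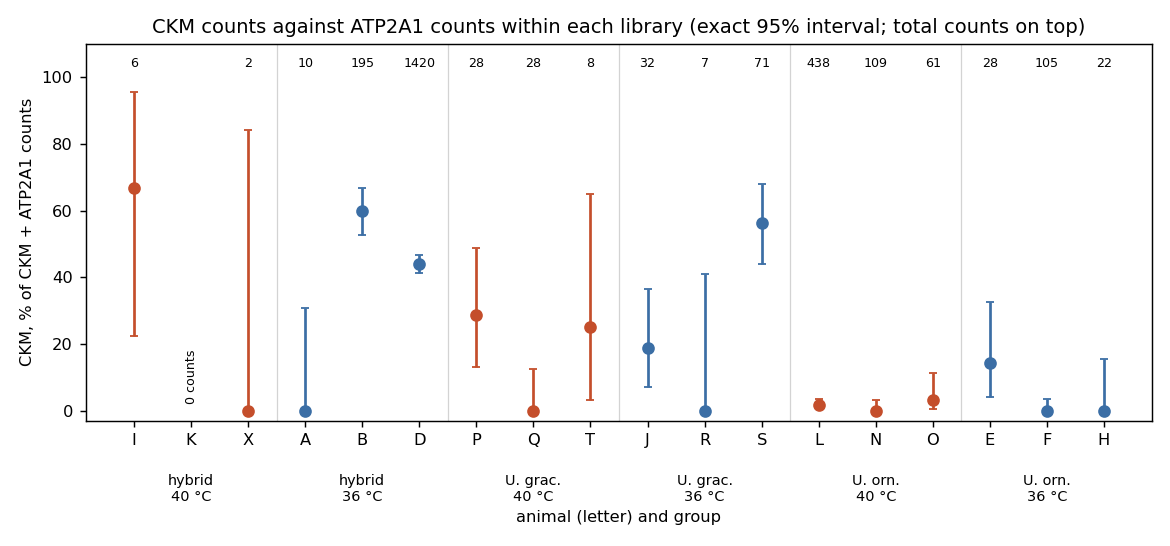
CKM counts as a percentage of CKM plus ATP2A1 counts in each library, with exact 95% intervals and the total counts on top, red for 40 °C and blue for 36 °C; hybrid K had 0 counts of both. D, B and S lie between 44.0% and 60%, and L, N and F at or below 1.83%.

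Genes most like each of the 6 over 18 libraries were found by Pearson's r of log2 CPM, as a description over libraries that share lineage and depth. CKM was most like MYL1 (r = 0.845), ACTA1 (0.766) and DCUN1D4 (0.761), then TNNI2 (0.731) and WBP1L (0.700). ACTA1 was most like CKM, MYL1 (0.757), TAF10 (0.729), KCTD13 (0.721) and AGAP1 (0.717). MYLPF was most like MYL1 (0.702), ATP2A1 (0.686), LPIN1 (0.665), ANXA9 (0.637) and XIRP2 (0.617). Fast-fibre genes stood among the nearest genes of CKM, ACTA1 and MYLPF, while TAF10, KCTD13 and AGAP1, near ACTA1, were not in the muscle lists. CKM, ACTA1, MYLPF and ATP2A1 were chosen on the same hybrid comparison, so their likeness to each other cannot be separated from that choice. D alone held 80.9% of the summed CKM CPM, and how far these r values rest on D and B was not tested.

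ATP2A1, RYR1 and SCN4A had no gene of the muscle lists among their 5 nearest. ATP2A1 was most like TLR7 (0.759), INAFM2 (0.758), LRRC19 (0.757), PAX5 (0.741) and CD79B (0.714), of which PAX5 and CD79B mark B cells in mammals. RYR1 was most like TEPSIN (0.893), ADARB1 (0.887), SPTBN4 (0.882), LRRC69 (0.871) and LYPD6 (0.868). SCN4A was most like KIRREL3 (0.891), CABLES2 (0.870), CCNT1 (0.843), FBF1 (0.842) and INPP5E (0.830). KIRREL3 had 1.61, 4.91 and 8.75 CPM in the U. ornatus L, N and O at 40 °C, against 0.474, 1.29 and 0.543 CPM in E, F and H at 36 °C.

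A list of B and plasma cell genes, chosen after these values were seen and with 10 of 14 genes in the table, was summed beside ATP2A1. It reached 58.7 and 54.4 CPM in L and N at 40 °C and 57.1 CPM in D, and lay between 15.4 and 31.2 CPM in the other 15 animals. Within it PAX5 had 9.93 CPM in L and 7.95 CPM in D, and CD79B had 15.0 CPM in L, 17.2 CPM in N and 10.8 CPM in D. The part of this list in the ATP2A1 values was not tested.

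Counts by group for the other muscle genes covered the 33 that were tested. Of these, 0 passed in U. graciosus with edgeR, DESeq2 or voom, and 2 had an unadjusted edgeR p under 0.05, beside 968 of all 15856 genes. The median log2 difference of the 33 was −0.08, against 0.003 for all genes. In hybrids, as a description, 13 of 33 lay above 0 with a median of −0.65, against 53.4% of all genes above 0 and a median of 0.04. In U. ornatus 15 of 33 lay above 0 with a median of −0.04, against 0.03 for all genes. In hybrids against U. graciosus 0 of 33 passed with edgeR, 3 had an unadjusted edgeR p under 0.05, DESeq2 called 3 and voom 0. Of all 15856 genes edgeR called 288 there, 2522 had an unadjusted edgeR p under 0.05, DESeq2 called 915 and voom 1049.

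Between U. ornatus and the other lineages individual muscle genes differed in both directions. In hybrids against U. ornatus 12 of 33 passed (36.4%), 6 higher and 6 lower, beside 35.2% of all genes. In U. graciosus against U. ornatus 14 of 33 passed (42.4%), 6 higher and 8 lower, beside 32.2% of all genes. The Z disc gene LDB3 ran from 2.26 to 9.44 CPM in hybrids, 2.79 to 11.9 CPM in U. graciosus and 82.0 to 167 CPM in U. ornatus, a log2 difference of −4.54 ± 0.45 for hybrids and −4.37 ± 0.45 for U. graciosus against U. ornatus (edgeR adjusted p = 5.00e-06 and 7.49e-06). MUSK, the receptor kinase of the neuromuscular junction, ran from 6.19 to 20.3 CPM in hybrids, 4.52 to 21.4 CPM in U. graciosus and 2.43 to 4.51 CPM in U. ornatus, higher by 1.81 ± 0.35 in hybrids and 2.06 ± 0.35 in U. graciosus (edgeR adjusted p = 0.00110 and 0.000502). CACNB1, the calcium channel's beta subunit, was higher by 2.51 ± 0.34 in hybrids and 2.87 ± 0.34 in U. graciosus, with edgeR adjusted p-values of 6.88e-05 and 2.68e-05.

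Some of these genes were at or near 0 in a whole lineage. CHRNG, the fetal subunit of the muscle acetylcholine receptor, had 0 counts in all 6 U. ornatus, against 0.251 to 2.90 CPM in hybrids and up to 0.888 CPM in U. graciosus. LMOD3, a thin-filament nucleator, had 0 counts in all 6 U. graciosus, at most 0.101 CPM in hybrids and 0.281 to 12.3 CPM in U. ornatus, with the highest value in N. MYOM2, an M-band protein, was at 0 in 5 of 6 U. ornatus and reached 1.93 CPM in D. JSRP1 and STAC3, partners of the calcium release machinery, were lower in U. graciosus than in U. ornatus, with log2 differences of −4.05 ± 0.83 and −3.06 ± 0.86, and JSRP1 was lower in hybrids, at −2.90 ± 0.75 (edgeR adjusted p = 0.00195, 0.0133 and 0.00791). All reads were aligned to the genome of Sceloporus undulatus, per the submitters' processing notes, so a difference between species in level and one in alignment cannot be told apart.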

How the data were processed

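Per the labels, liver RNA was isolated by TRIzol followed by RNeasy columns and sequenced from directional Illumina libraries. Per the submitters' processing notes, reads were trimmed with Trim Galore 0.6.4, aligned with STAR to the Sceloporus undulatus genome, counted with Subread and tested with DESeq2. Neither the genome build and annotation nor the counter's strand and multi-match settings were stated there. The authors deposited raw counts per gene. In each library 71.8% to 76.4% of the counts between 1 and 20 were even, so a count may not equal 1 fragment.

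The 6 genes and all lists were chosen with earlier results of these data known. Genes were kept by filterByExpr on the 6 groups, scaled by TMM and fitted by edgeR 4.0.16 quasi-likelihood (R 4.3.3, robust, 1 mean per group, 18 libraries), and p-values were adjusted by Benjamini-Hochberg over all 15856 genes with a threshold of 0.05. Tests of the 6 genes are reported only for lineages that did not choose them. None is reported for CKM, which did not pass the low-count filter in the parent libraries alone. The SE was the log2 difference divided by the root of F. Likeness used log2 CPM with a prior count of 2. The plan was to name the 6 genes, paralogs, the 5 nearest genes and muscle list genes past the threshold. It added up to 4 genes of each muscle list and up to 2 of each other list, by mean CPM. Not all of these were named, and further genes outside the plan were named after their values were seen. The labels name animals by letter, 1 library each.

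Alternatives were DESeq2 1.42.0, limma 3.58.1 voom with quality weights, RLE factors, plain totals, other filters, each library left out in turn and X, T and O left out together. Leaving out D and B or N and O, and 1 temperature at a time, were added after seeing the data.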

Additional observations from a re-analysis of the deposited data

Results flagged for a closer look

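SCN4A values were ordered oppositely by temperature in the parent species, although it did not pass in U. graciosus (edgeR adjusted p = 0.788). All 3 U. ornatus at 40 °C lay above all 3 at 36 °C, and all 3 U. graciosus at 40 °C lay below all 3 at 36 °C. How often other genes were separated in this way was not counted, so whether this order is unusual was not tested. The log2 temperature difference in U. ornatus minus that in U. graciosus was 4.29, and this difference was not tested, since the U. ornatus values chose the gene.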

How the results depend on the processing

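No paired analysis was possible because each animal gave 1 library at 1 temperature and its letter occurs nowhere else. Of 536 values recomputed under settings other than leaving out 1 library, 478 met the rule for no change: the same direction and side of the threshold for a lineage or U. graciosus difference, a shift under the residual SD for another difference, and within 1.5 times for a count. The causes of the changes were not tested. Differences of the first kind that turned sign follow. In U. graciosus, 40 °C minus 36 °C, voom gave 0.89 for ATP2A1 and −0.0085 for RYR1, and without X, T and O ACTA1 was −0.15 and ATP2A1 0.28. In hybrids minus U. graciosus ATP2A1 was −0.0152 with DESeq2, −1.54 with voom, −0.28 without X, T and O, −2.72 without D and B and −3.95 at 40 °C. There ACTA1 was −0.73 without D and B and −0.11 at 40 °C, CKM −4.39 and −1.76, and at 36 °C MYLPF was 2.03 and RYR1 0.47. In hybrids minus U. ornatus CKM was −2.44 without D and B and −1.21 at 40 °C, and at 36 °C MYLPF was 2.32 and ATP2A1 2.66. SCN4A in U. graciosus minus U. ornatus was 0.26 at 36 °C. Of the other muscle genes DESeq2 called 3 in hybrids minus U. graciosus, beside 915 of all 15856 genes. In hybrids minus U. ornatus at 36 °C 6 of them passed in edgeR, beside 2925 of all genes. For the mean of lineages, without D and B ACTA1 was 1.197 and CKM 0.96, also of turned sign. In U. graciosus minus U. ornatus 7 other muscle genes passed at 36 °C and 7 at 40 °C, where 2353 and 2528 of all 15856 genes passed.

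Leaving out 1 library at a time gave, for U. graciosus 40 °C minus 36 °C, −0.15 to 0.76 for ACTA1, −3.54 to 0.62 for CKM, −0.45 to 0.37 for ATP2A1 and −0.22 to 0.46 for RYR1. For hybrids minus U. graciosus it gave −0.52 to 2.39 for CKM, −1.58 to 0.32 for ATP2A1 and −0.36 to 0.17 for RYR1. For U. graciosus minus U. ornatus it gave −0.38 to 0.86 for MYLPF and 9 (without J) to 14 other muscle genes called. Over all genes, edgeR, DESeq2 and voom called 0, 55 and 0 for temperature in hybrids, 0, 38 and 1 in U. graciosus, 124, 847 and 257 in U. ornatus, 158, 849 and 530 for the mean of lineages, and 288, 915 and 1049 in hybrids minus U. graciosus. With no low-count filter edgeR called 60 genes in U. ornatus and 73 for the mean, and with only the groups compared it called 0 in U. ornatus and 174 in hybrids minus U. graciosus. Counts under 3 in a library limit MYLPF, CKM and ATP2A1 in hybrids at 40 °C.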

Other observations

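Marker genes of several other tissues had their highest sums in animals other than D. Markers of the exocrine pancreas (3 of 8 genes in the table) summed to 420 CPM in hybrid I at 40 °C, against a median of 39.8 CPM over 18 libraries and 23.1 CPM in D. Intestine and stomach markers (7 of 8) summed to 104 CPM in U. ornatus O at 40 °C, against a median of 8.21 CPM and 12.2 CPM in D. The gene SI alone gave 98.13 CPM of the sum in O. SI ran from 11.98 CPM in E to 98.13 CPM in O within U. ornatus, and reached at most 5.623 CPM, in hybrid B, in the other lineages. FABP2 had 4.213 CPM in O and 10.94 CPM in D, and the remaining genes of this list were at or below 0.8427 CPM in O. Tendon and fascia genes (6 of 7) summed to 742 CPM in hybrid X at 40 °C, against a median of 56.6 CPM and 79.8 CPM in D. The collagen genes COL1A1 and COL1A2 gave 336 and 401 CPM of the sum in X. TNMD and SCX had 0.52 and 0.28 CPM in X, and FMOD had 5.1 CPM there against 84.9 CPM in hybrid A. None of these 3 was highest in X.

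The lung gene in the table was also highest in X, at 4.72 CPM. Peripheral nerve genes (5 of 6) ran from 24.5 to 67.7 CPM, with 48.2 CPM in D, and erythrocyte genes (5 of 8) from 31.2 to 541 CPM, with 307 CPM in D. Kidney and gonad genes (9 of 9) ran from 4.56 CPM in D to 27.3 CPM in I, and the single fat gene in the table stayed at or below 0.0947 CPM.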
